A study of Homo sapiens with 8 samples.

Results

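The proteasome genes measured in this study are the subunits, activators, inhibitor and assembly factors whose symbols run from PSMA to PSMG followed by a number. A match of that pattern to the probe annotation gave 44 genes of the 18821 with a symbol, and all 44 were among the 18819 genes tested. They hold 8 PSMA genes, 11 PSMB genes of which 3 encode immune subunits, 5 PSMC, 11 PSMD, 4 PSME and 4 PSMG genes, and PSMF1. They were read by 64 probes: 25 genes by 1 probe, 18 by 2 and 1 by 3.

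The cells were HepG2, an established human hepatoblastoma line used as a model of hepatocytes. The linalool group was loaded with lipid and then given 1 mM linalool, a fragrant plant monoterpene alcohol (2 arrays). The fenofibrate group was loaded and then given 100 µM fenofibrate, a drug against high blood lipids that acts through the nuclear receptor PPARα (3 arrays). The lipid-loaded group received the lipid and no compound (3 arrays). Untreated cells were the comparison sample on every array. Loading lasted 24 h with 400 µM oleate bound to albumin at a ratio of 6.6, although another label names oleate together with palmitate. All 3 loaded groups then spent 24 h in medium without serum, and whether untreated cells did so too is not stated in the labels.

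The proteasome is the barrel-shaped protease that degrades proteins marked with ubiquitin. Its core is built from outer alpha rings, which gate the entry, and inner beta rings, which carry the catalytic sites, and a regulatory particle of ATPases and lid proteins recognises, unfolds and feeds in the substrate. In human cells the transcription factor NFE2L1 raises the genes of the whole complex together through antioxidant response elements when proteasome activity is short, and interferon replaces the catalytic beta subunits with immune forms that favour the production of peptides for antigen presentation.

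Promoter sequences are shown for 5 genes, to let both kinds of motif be seen beside genes described below. They come from RefSeq on build GRCh38.p14 and give the 180 bases before the first listed transcription start, 5′ to 3′ on the strand of the gene. Capitals mark TGACNNNGC, a core of the antioxidant response element, in PSMB3, PSMD3 and PSMD12, and, in PSMB10 and PSME2, the reverse complement of an interferon response element, written as TTTC, any 2 bases and TTTC again. PSME2 also holds TGACNNNGC, which is left in lower case.
PSMB3, chr17:38752561-38752740, plus strand: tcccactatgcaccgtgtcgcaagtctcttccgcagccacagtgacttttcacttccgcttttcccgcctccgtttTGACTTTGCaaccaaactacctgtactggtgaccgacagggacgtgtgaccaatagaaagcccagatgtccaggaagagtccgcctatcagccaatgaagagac
PSMD3, chr17:39980627-39980806, plus strand: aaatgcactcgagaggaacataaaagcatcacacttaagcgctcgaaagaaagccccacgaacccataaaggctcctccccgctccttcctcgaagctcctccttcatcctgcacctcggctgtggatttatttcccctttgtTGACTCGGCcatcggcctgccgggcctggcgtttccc
PSMD12, chr17:67366578-67366757, minus strand: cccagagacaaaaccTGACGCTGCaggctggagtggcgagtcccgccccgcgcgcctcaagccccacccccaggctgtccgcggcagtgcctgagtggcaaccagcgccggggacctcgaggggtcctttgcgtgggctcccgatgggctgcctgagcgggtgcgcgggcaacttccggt
PSMB10, chr16:67936851-67937030, minus strand: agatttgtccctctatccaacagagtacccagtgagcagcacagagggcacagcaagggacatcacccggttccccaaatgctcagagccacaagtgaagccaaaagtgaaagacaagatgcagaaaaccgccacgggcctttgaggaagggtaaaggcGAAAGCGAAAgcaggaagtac
PSME2, chr14:24146611-24146790, minus strand: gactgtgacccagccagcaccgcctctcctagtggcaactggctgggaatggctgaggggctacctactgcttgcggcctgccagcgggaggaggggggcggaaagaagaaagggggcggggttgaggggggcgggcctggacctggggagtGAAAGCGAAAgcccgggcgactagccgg

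Of the 44 genes, 39 had a promoter in the table, and the motifs were searched on both strands from 250 bases before to 50 bases after the start. TGACNNNGC was found in 13 of 39 (33.3%), against 13.6% of all 27305 promoters. The related core TGAGNNNGC was found in 12 (30.8%, against 18.4%), and 19 (48.7%, against 29.4%) held either of these 2 cores. CCAAT, the box bound by the NF-Y factor, was found in 17 (43.6%, against 35.7%). The interferon response element was found in 6 (15.4%, against 3.65%): PSMA4, PSMB4, PSMB10, PSME1, PSME2 and PSMG4. PSMB10, PSME2 and PSMG4 held it in the same letters, beginning 21, 28 and 33 bases before the start, and PSME1 held the reverse complement of these letters just after the start. A match describes the letters of the window, and a window without one says nothing about the factor.

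Values are the deposited log2 ratios of the 2 channels of each array. Cy5 always carried the untreated RNA and Cy3 the treated RNA, and the labels do not say which channel is the numerator. Signs are therefore those of the deposited values, and they do not tell which of the cells, treated or untreated, had more of an RNA. Each array also carries 1 constant added to all of its log2 values, from 0.02 to 0.59 over the arrays, so a sign near 0 can depend on whether it is taken off. Without a dye swap, a gene-specific dye effect and a difference between the cells cannot be told apart in a ratio against untreated cells. Genes were called at a limma adjusted p under 0.05. The replicates are called biological, with no word on separate cultures, so p-values measure only how these samples vary, possibly for technical reasons, and a test against a ratio of 0 leaves out the spread of the untreated cells. In bulk RNA, fewer cells of a kind and less RNA per cell cannot be told apart.

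The number of arrays limits the precision, with a median SE of 0.236 for the linalool group and 0.193 for a group of 3. Fenofibrate replicate 3 stood apart. Its correlation with the other arrays' mean, taken across genes, which are not independent replicates, was 0.127, while the remaining 7 arrays had correlations of 0.440 to 0.716. A ratio carries no level, so the cell type could not be checked as the presence of markers. Of 8 hepatocyte markers measured, 7 had called positive ratios in lipid-loaded against untreated cells, and their median ratios were 0.10 with linalool, 0.58 with fenofibrate and 0.65 in lipid-loaded cells. Of 10 markers of endothelial, stromal and blood cells, CD68 was called positive and CDH5, COL1A1, COL1A2 and VWF negative. Their part in the results below was not tested.

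In lipid-loaded against untreated cells, 38 of 44 proteasome genes were called, 35 of them positive and 3 negative. Over all genes tested 34.8% were called, 24.1% positive and 10.7% negative. With the array constants taken off, 17 proteasome genes were called, 14 positive and 3 negative, while over all genes 2.5% were called positive and 31.8% negative. With arrays scaled to the same spread, limma called 0 of 44 and 37 reached an unadjusted p under 0.05. At an unadjusted p under 0.05 there were 41 of 44, against 48.8% of all genes. The ratio was positive for 39 of 44, against 49.9% of all genes, and its median over the 44 was 0.74, against −0.003 for all genes tested. The positive calls covered every part of the machine: the alpha ring, the beta ring, the ATPases, the lid, the PSME1 and PSME2 activator, PSMF1 and the PSMG chaperones. The 3 negative calls were PSMA8, an alpha subunit of the testis, PSMB11, a beta subunit of the thymus, and PSMB10, the immune subunit with trypsin-like activity. The count rests on lipid-loaded replicate 1: without it 0 were called (33 at an unadjusted p under 0.05, lowest adjusted p over all genes 0.0987), while the median stayed at 0.63. The shares of all genes at an unadjusted p are not given for this setting or for equal spread.

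**Figure D1:**
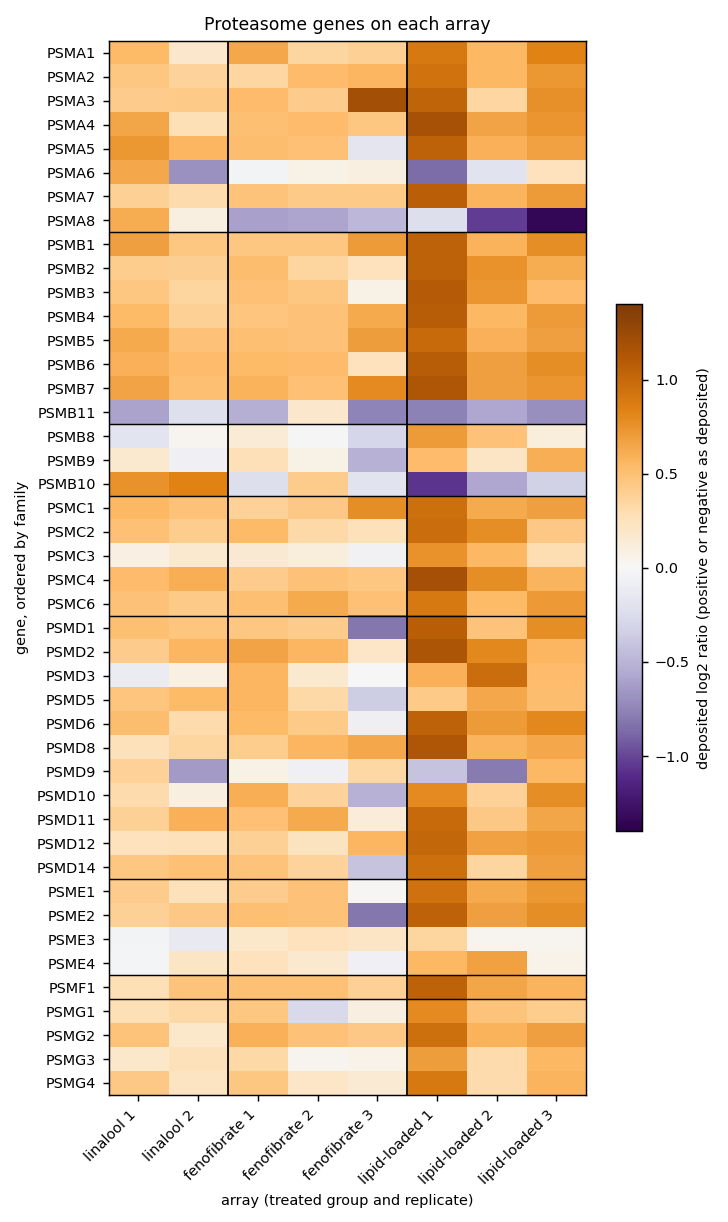
Deposited log2 ratio of each of the 44 proteasome genes (down) on each of the 8 arrays (across), by colour from negative to positive, with lines between families and groups. Most genes are positive on the lipid-loaded arrays, with the deepest colour on replicate 1, and PSMA8, PSMB10 and PSMB11 are negative there.

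The arrays differed in how far the proteasome genes stood from 0. The median over the 44 genes was 0.44 and 0.36 on the linalool arrays, 0.47, 0.42 and 0.17 on the fenofibrate arrays, and 0.96, 0.58 and 0.65 on the lipid-loaded arrays. Each lipid-loaded array thus lay above every other array as deposited. With the array constants taken off, the medians were 0.43 and 0.26 (linalool), 0.21, 0.20 and −0.0025 (fenofibrate), and 0.37, 0.29 and 0.40 (lipid-loaded). Linalool replicate 1 was then the highest, and the linalool and lipid-loaded arrays overlapped. As deposited, lipid-loaded replicate 1 was the highest of the 8 arrays for 34 of 44 genes, and fenofibrate replicate 3 the lowest for 19. The shares of all genes were not counted. Lipid-loaded replicate 1 also carries the largest constant, 0.59. With the constants taken off, it was the highest for PSMA7, PSMB3, PSMC4, PSMD2, PSMD8 and PSMF1 alone. All genes were also most spread on lipid-loaded replicate 1, with an interquartile range of 1.13, against 0.551 to 0.836 on the other 7 arrays.

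The place of the proteasome genes among all genes of the same array does not depend on that spread. Their median lay at the 85.8 and 80.1 percentile of all genes with linalool, at the 78.9, 85.5 and 66.4 percentile with fenofibrate, and at the 93.4, 83.7 and 91.2 percentile in lipid-loaded cells. On this scale the groups overlapped, since lipid-loaded replicate 2 lay below linalool replicate 1 and fenofibrate replicate 2. Of the 44 genes, 25 were positive on all 8 arrays, against 13.2% of all genes tested. All 8 arrays have untreated cells as the comparison and the same dye orientation.

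**Figure D2:**
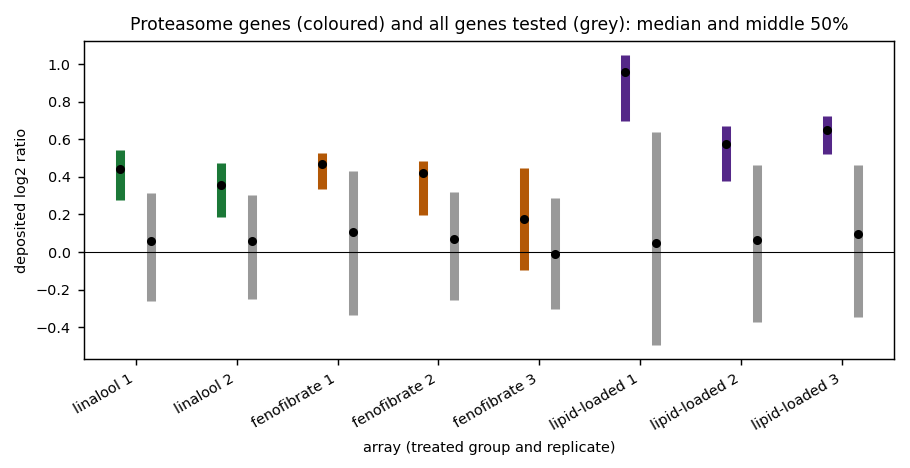
Median (black point) and middle 50% (bar) of the deposited log2 ratios of the 44 proteasome genes (coloured) and of all genes tested (grey) on each array. The proteasome medians run from 0.17 on fenofibrate replicate 3 to 0.96 on lipid-loaded replicate 1, each above the median of all genes on its array.

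The alpha ring genes were called in 7 of 8 cases in lipid-loaded against untreated cells, 6 positive and 1 negative. PSMA4, an alpha subunit found in every proteasome, had ratios of 0.65 and 0.28 with linalool, 0.51, 0.53 and 0.45 with fenofibrate, and 1.18, 0.66 and 0.74 in lipid-loaded cells. Its lipid-loaded mean of 0.86 (SE 0.17, n = 3, limma adjusted p = 0.0135) was the highest of the family, and its 3 lipid-loaded arrays lay above the others as deposited. With the array constants taken off, linalool replicate 1 (0.63) lay above all lipid-loaded arrays (0.59, 0.38 and 0.49). PSMA1, PSMA2, PSMA3, PSMA5 and PSMA7 had lipid-loaded means from 0.71 to 0.78. PSMA6, which belongs to the same ring, was unlike them, at 0.64 and −0.68 with linalool, −0.04, 0.07 and 0.10 with fenofibrate, and −0.86, −0.20 and 0.25 in lipid-loaded cells. The arrays of each group lay on both sides of 0 as deposited. With the array constants taken off, the fenofibrate arrays were all negative (−0.30, −0.15 and −0.08), lipid-loaded replicate 3 was at 0 and the other lipid-loaded arrays were negative. Its lipid-loaded mean of −0.27 did not pass (SE 0.25, adjusted p = 0.407). PSMA6 was read by 1 probe.

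PSMA8 takes the place of PSMA7 in the proteasome of male germ cells. Its ratios were 0.62 and 0.09 with linalool, −0.61, −0.59 and −0.47 with fenofibrate, and −0.23, −1.04 and −1.34 in lipid-loaded cells. The other 6 arrays lay below both linalool arrays. The value of linalool replicate 2 equals the constant of that array, so with the constants taken off it was at 0, against 0.60 on linalool replicate 1. Its lipid-loaded mean was −0.87 (SE 0.21, n = 3, adjusted p = 0.0158), the lowest of the 44.

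The 8 beta genes outside the immune set were all called in lipid-loaded against untreated cells, 7 of them positive. PSMB5, with the chymotrypsin-like site, had ratios of 0.63 and 0.48 with linalool, 0.51, 0.48 and 0.69 with fenofibrate, and 0.99, 0.59 and 0.68 in lipid-loaded cells. PSMB6, with the caspase-like site, had ratios of 0.59 and 0.53 with linalool, 0.54, 0.53 and 0.24 with fenofibrate, and 1.09, 0.68 and 0.77 in lipid-loaded cells. PSMB7, with the trypsin-like site, had ratios of 0.67 and 0.51 with linalool, 0.59, 0.50 and 0.79 with fenofibrate, and 1.13, 0.68 and 0.73 in lipid-loaded cells. All 3 catalytic genes were thus positive on all 8 arrays, and only PSMB6 had lipid-loaded arrays clear of both other groups as deposited. With the array constants taken off, its linalool arrays (0.57 and 0.44) overlapped its lipid-loaded arrays (0.50, 0.395 and 0.52).

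The lipid-loaded means were 0.76 for PSMB5 (SE 0.16), 0.84 for PSMB6 (SE 0.16) and 0.85 for PSMB7 (SE 0.16), each with an adjusted p of 0.0135. The structural subunits PSMB1, PSMB2, PSMB3 and PSMB4 were close to them, from 0.78 to 0.80. PSMB11 is the catalytic subunit of the thymus proteasome, which serves the selection of T cells. It was negative on 7 of 8 arrays, at −0.59 and −0.21 with linalool, −0.53, 0.19 and −0.74 with fenofibrate, and −0.76, −0.57 and −0.70 in lipid-loaded cells, where its mean was −0.68 (SE 0.19, n = 3, adjusted p = 0.0240). Its groups overlapped.

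Of the immune subunits as deposited, PSMB8 and PSMB9 shared the sign of the constitutive ones on all 3 lipid-loaded arrays, and PSMB10 had the other sign. With the array constants taken off, PSMB8 stood there at 0.11, 0.21 and −0.13 and PSMB9 at −0.06, −0.06 and 0.36. PSMB10 stayed negative and the constitutive genes positive on these arrays. PSMB8, the immune counterpart of PSMB5, had ratios of −0.18 and 0.03 with linalool, 0.14, −0.01 and −0.30 with fenofibrate, and 0.70, 0.49 and 0.12 in lipid-loaded cells. PSMB9, the counterpart of PSMB6, had ratios of 0.17 and −0.06 with linalool, 0.26, 0.08 and −0.52 with fenofibrate, and 0.53, 0.22 and 0.61 in lipid-loaded cells. Both lay around 0 with the compounds, and their lipid-loaded means of 0.44 (SE 0.17, adjusted p = 0.0665) and 0.45 (SE 0.18, adjusted p = 0.0742) did not pass. Without fenofibrate replicate 3 both passed, with the higher adjusted p at 0.0497. That array is not in the lipid-loaded group, and calls over all genes also rose, from 6555 to 7772 of 18819.

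PSMB10, the counterpart of PSMB7, took another order. Its ratios were 0.75 and 0.83 with linalool, −0.22, 0.42 and −0.19 with fenofibrate, and −1.06, −0.57 and −0.32 in lipid-loaded cells. The 3 groups did not overlap. The means were 0.79 with linalool (SE 0.24, n = 2, adjusted p = 0.299), 0.00 with fenofibrate (SE 0.19, n = 3, adjusted p = 0.997) and −0.65 in lipid-loaded cells (SE 0.19, n = 3, adjusted p = 0.0266), of which only the last passed. PSMB10 was read by 1 probe and PSMB9 by 1, so no second probe bears on their values.

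**Figure D3:**
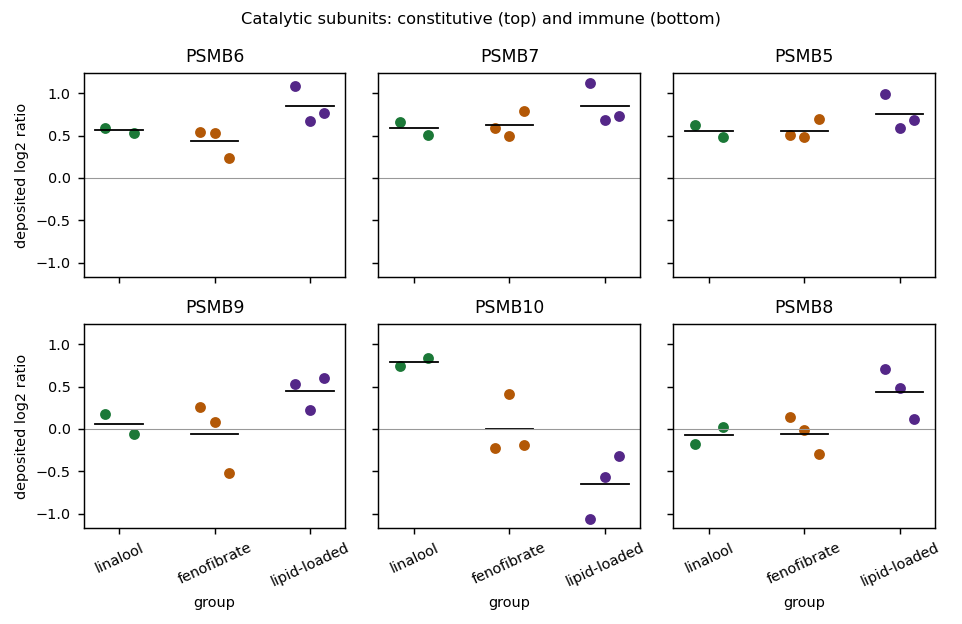
Deposited log2 ratio of the 3 constitutive catalytic genes (top) and their immune counterparts below them, with a point per array and a line at the group mean. PSMB5, PSMB6 and PSMB7 are positive on every array, whereas PSMB10 runs from 0.83 with linalool to −1.06 in lipid-loaded cells.

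The mean of the 3 immune genes minus that of the 3 constitutive genes was −0.38 and −0.24 on the linalool arrays, −0.49, −0.35 and −0.91 on the fenofibrate arrays, and −1.01, −0.61 and −0.60 on the lipid-loaded arrays. It was negative on all 8 arrays. A constant added to a whole array drops out of this difference. The arrays closest to 0 were linalool replicate 2, fenofibrate replicate 2 and linalool replicate 1, and the fenofibrate and lipid-loaded arrays overlapped. As deposited, PSMB10 lay higher on both linalool arrays than on every lipid-loaded array, whereas PSMB8 and PSMB9 lay lower. The order of this mean difference is thus not that of each immune gene, and no test was made of the difference.

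Each of the 5 ATPase genes of the regulatory particle was called positive in lipid-loaded against untreated cells. PSMC4 was the highest, at 0.53 and 0.61 with linalool, 0.42, 0.48 and 0.45 with fenofibrate, and 1.19, 0.77 and 0.57 in lipid-loaded cells, with a lipid-loaded mean of 0.84 (SE 0.16, n = 3, adjusted p = 0.0135). PSMC3 was the lowest, at 0.08 and 0.17 with linalool, 0.16, 0.12 and −0.05 with fenofibrate, and 0.74, 0.55 and 0.29 in lipid-loaded cells, with a mean of 0.53 (SE 0.16, n = 3, adjusted p = 0.0273). For PSMC3 as deposited, the lipid-loaded arrays lay above those of both compounds, which stood close to 0 as the average of 2 unlike probes. The first probe averaged −0.07 with linalool, −0.24 with fenofibrate and 0.19 in lipid-loaded cells, and the second 0.31, 0.40 and 0.87. With the array constants taken off, lipid-loaded replicate 3 (0.04) lay below both linalool arrays (0.06 and 0.07).

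Of the 11 PSMD genes, 10 were called positive. PSMD6, a lid subunit, had ratios of 0.52 and 0.31 with linalool, 0.54, 0.43 and −0.07 with fenofibrate, and 1.05, 0.70 and 0.81 in lipid-loaded cells, and its lipid-loaded mean of 0.85 was the highest (SE 0.17, n = 3, adjusted p = 0.0135). PSMD2, a scaffold of the base that binds ubiquitin receptors and shuttles, followed at 0.84 (SE 0.17). PSMD14, the lid enzyme that removes ubiquitin chains from the substrate, had ratios of 0.45 and 0.49 with linalool, 0.47, 0.37 and −0.41 with fenofibrate, and 0.96, 0.36 and 0.68 in lipid-loaded cells. Fenofibrate replicate 3 was the lowest array for PSMD14, as it was for PSMD1, PSMD5, PSMD6 and PSMD10.

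PSMD5, PSMD9 and PSMD10 are chaperones that assemble the ATPase ring and leave the finished particle. PSMD5 and PSMD10 were called positive, PSMD5 at 0.53 (SE 0.19, n = 3, adjusted p = 0.0479). PSMD9 had ratios of 0.38 and −0.64 with linalool, 0.07, −0.06 and 0.33 with fenofibrate, and −0.41, −0.79 and 0.55 in lipid-loaded cells. Its arrays of a group disagreed in sign, and its lipid-loaded mean of −0.22 did not pass (SE 0.26, adjusted p = 0.509).

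Among the activators, PSME1 and PSME2 form the ring that interferon raises, PSME3 forms a nuclear ring, and PSME4 is a large single-chain cap. PSME2 was the highest, at 0.39 and 0.44 with linalool, 0.51, 0.48 and −0.81 with fenofibrate, and 1.04, 0.68 and 0.77 in lipid-loaded cells, with a lipid-loaded mean of 0.83 (SE 0.24, n = 3, adjusted p = 0.0238). PSME1 was also called, at 0.77 (SE 0.16). PSME3 was the lowest, at −0.04 and −0.13 with linalool, 0.19, 0.25 and 0.22 with fenofibrate, and 0.35, 0.02 and 0.04 in lipid-loaded cells, with a mean of 0.14 (SE 0.15, adjusted p = 0.474). PSME4 stood at 0.43 (SE 0.17, adjusted p = 0.0693), so neither of these 2 passed.

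PSMF1, which inhibits the core particle in the test tube, had ratios of 0.28 and 0.47 with linalool, 0.50, 0.50 and 0.39 with fenofibrate, and 1.05, 0.65 and 0.58 in lipid-loaded cells, with a lipid-loaded mean of 0.76 (SE 0.16, n = 3, adjusted p = 0.0135). It thus took the same sign as the subunits. The 4 PSMG genes, chaperones that build the alpha ring, were all called positive. PSMG2 had ratios of 0.48 and 0.19 with linalool, 0.60, 0.48 and 0.44 with fenofibrate, and 0.96, 0.58 and 0.68 in lipid-loaded cells, where its mean of 0.74 was the highest of the family (SE 0.16, n = 3, adjusted p = 0.0135). PSMG3 had ratios of 0.19 and 0.26 with linalool, 0.32, 0.02 and 0.06 with fenofibrate, and 0.69, 0.31 and 0.56 in lipid-loaded cells, where its mean of 0.52 was the lowest (SE 0.16, n = 3, adjusted p = 0.0282). Both were positive on all 8 arrays as deposited. With the array constants taken off, PSMG3 was at −0.20 and −0.12 on fenofibrate replicates 2 and 3. The 2 probes of PSMG3 had lipid-loaded means of 0.32 and 0.72.

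**Figure D4:**
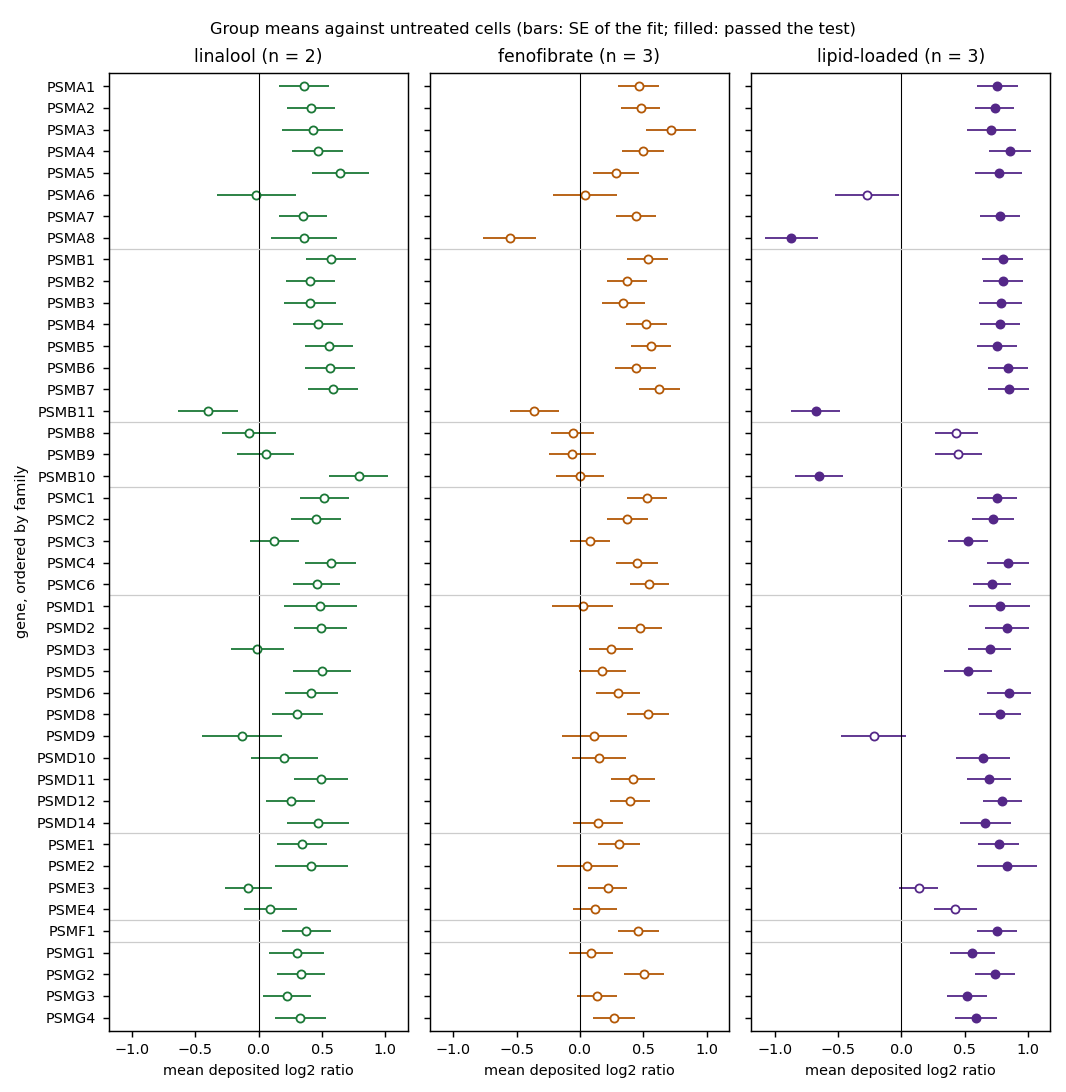
Mean deposited log2 ratio of each proteasome gene in each group against untreated cells, with the SE of the fit as a bar and filled points for genes that passed the test. Filled points occur in the lipid-loaded panel alone, where 38 of 44 passed.

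With linalool against untreated cells, limma called 0 of 44 proteasome genes and 0% of all genes tested. At an unadjusted p under 0.05 there were 14 of 44, against 12.4% of all genes. The median ratio of the 44 was 0.41, against 0.04 for all genes. It was positive for 38 genes, against 54.3% of all genes, and on both arrays for 36, against 38.6%. PSMB10 had the lowest adjusted p of the set, at 0.299, and PSMA5 followed in size at 0.65 (SE 0.22, n = 2, adjusted p = 0.332). By family the median ran from 0.06 in the immune subunits to 0.51 in the other beta genes.

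With fenofibrate against untreated cells, limma also called 0 of 44, and 0% of all genes tested. At an unadjusted p under 0.05 there were 22 of 44, against 18.1% of all genes, and 26 of 44 were positive on every array, against 21.5%. The median of the 44 was 0.32, against 0.02 for all genes, and 40 were positive, against 52.8% of all genes. The lowest adjusted p was 0.137, for PSMB7 at 0.63 (SE 0.16, n = 3). PSMA3 was the highest at 0.72 (SE 0.19, adjusted p = 0.139), drawn up by 1.20 on replicate 3 against 0.53 and 0.42 on the others. Without that replicate, 29 genes reached an unadjusted p under 0.05, the median was 0.45, 42 were positive, and limma called 0. The shares of all genes without it are not given here, so the rise is not shown to be particular to the proteasome genes.

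Differences between the treated groups compare their ratios. The 2 that follow share the lipid-loaded arrays. In linalool minus lipid-loaded, limma called 0 of 44 and 0% of all genes. At an unadjusted p under 0.05 there were 4 of 44, against 11.6% of all genes. The difference was positive for 5 of 44, against 44.9% of all genes, and its median was −0.29, against −0.06 for all genes. As deposited, the linalool arrays lay below all lipid-loaded arrays for 27 genes, against 24.3% of all genes, and above them for 2, PSMA8 and PSMB10, against 12.7%. With array constants taken off, they lay below for PSMD3, PSMD8, PSMD12 and PSME2 alone. They then lay above for PSMA5, PSMA8, PSMB10, PSMB11, PSMD5 and PSMG1, and the shares of all genes were not counted. The 2 groups lay on opposite sides of 0 for 3 genes, PSMA8, PSMB10 and PSME3, against 7.52% of all genes, and with array constants taken off for PSMB10 and PSMD3, against 7.74%. The sign of the median depends on the array constants. With arrays scaled to the same spread the median was −0.04, against −0.02 for all genes. With the constant of each array taken off it was 0.02, against a median of 0.26 for all genes. The set lay below all genes in both. A constant moves the set and all genes alike, so taking it off cannot test the place of the set among all genes.

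PSMB10 had the largest difference, 1.44 (SE 0.30, 95% interval 0.77 to 2.10, limma adjusted p = 0.308). PSMA8 was next at 1.23 (SE 0.33, 95% interval 0.49 to 1.96, adjusted p = 0.342). Neither passed. PSMB10 ranged from 1.23 to 1.76 and PSMA8 from 0.96 to 1.55 over the alternative settings and left-out arrays, so their sign did not turn in these. The lid subunits PSMD3 at −0.71 (SE 0.27, adjusted p = 0.383) and PSMD12 at −0.55 (SE 0.25, adjusted p = 0.427) were the other genes at an unadjusted p under 0.05. PSMD3 had ratios of −0.10 and 0.08 with linalool, 0.57, 0.17 and −0.01 with fenofibrate, and 0.60, 0.97 and 0.53 in lipid-loaded cells. PSMD12 had 0.25 and 0.25 with linalool, 0.38, 0.24 and 0.56 with fenofibrate, and 1.01, 0.67 and 0.72 in lipid-loaded cells. For both, the lipid-loaded arrays lay above the linalool arrays.

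In fenofibrate minus lipid-loaded, limma called 0 of 44 and 0% of all genes. At an unadjusted p under 0.05 there were 4 of 44, against 10.3% of all genes. The difference was positive for 7 of 44, against 44.8% of all genes, and its median was −0.34, against −0.06 for all genes. As deposited, the fenofibrate arrays lay below all lipid-loaded arrays for 14 genes, against 12.4% of all genes, and above them for 1, PSMB10, against 6.39%. These counts are not given here with array constants taken off. The groups lay on opposite sides of 0 for 0 genes as deposited, against 1.59% of all genes. With array constants taken off they did so for PSMC3 alone, against 1.37%. The median was −0.12 with arrays scaled to the same spread. It was −0.19 with array constants taken off, where all genes stood at 0.10.

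The genes at an unadjusted p under 0.05 were PSME2 at −0.77 (SE 0.34), PSMD1, a large scaffold of the base, at −0.76 (SE 0.34), PSMD6 at −0.55 (SE 0.24) and PSMB10 at 0.65 (SE 0.27), each with an adjusted p of 0.472. PSMD1 had ratios of 0.51 and 0.47 with linalool, 0.45, 0.42 and −0.81 with fenofibrate, and 1.07, 0.48 and 0.78 in lipid-loaded cells. Fenofibrate replicate 3 alone was negative for PSMD1 and for PSME2. Without it PSME2 stood at −0.34, PSMD1 at −0.34, PSMD6 at −0.37 and PSMB10 at 0.75. Then 1 of 44 genes reached an unadjusted p under 0.05, and the share of all genes is not given here.

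**Figure D5:**
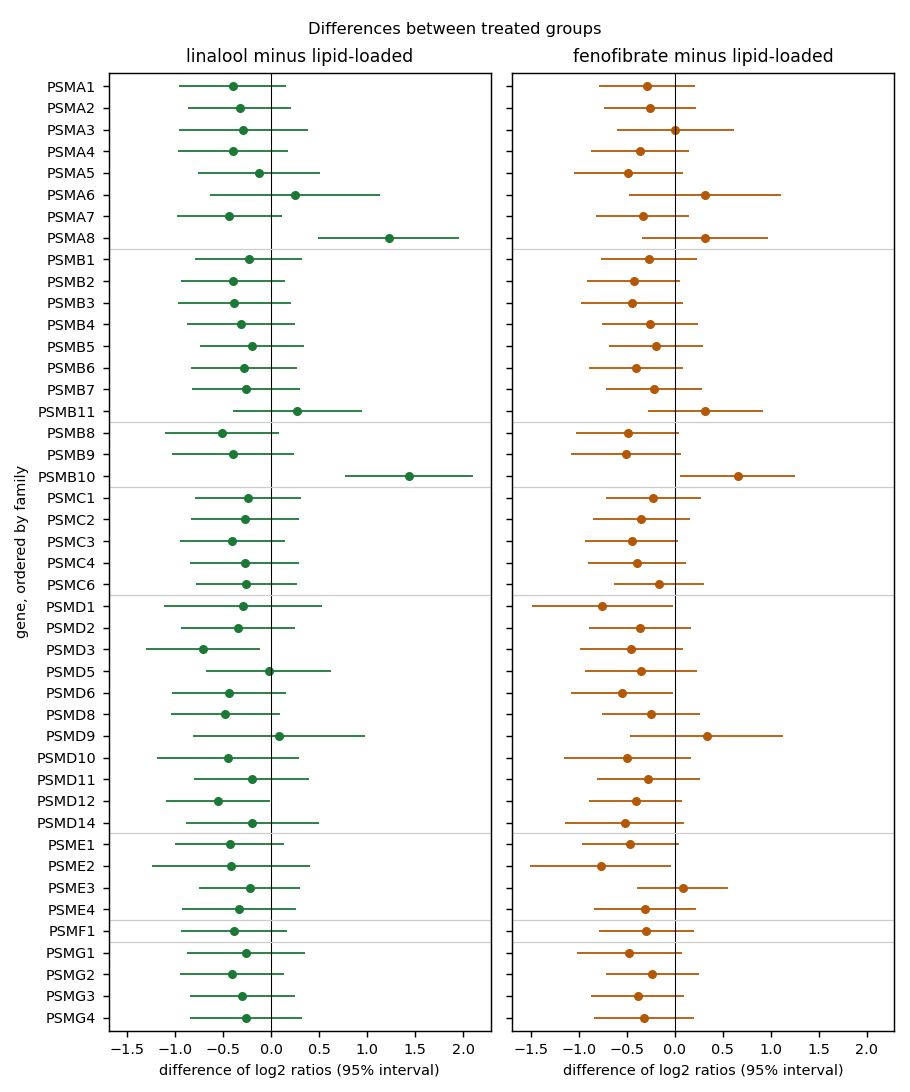
Difference of mean log2 ratios for each proteasome gene, linalool minus lipid-loaded (left) and fenofibrate minus lipid-loaded (right), with 95% intervals from the fit. Most points lie to the left of 0 in both panels, although the linalool median was 0.02 with array constants taken off, PSMB10 at 1.44 and 0.65 and PSMA8 at 1.23 and 0.31 lie to the right, and no difference passed after adjustment.

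In linalool minus fenofibrate, limma called 0 of 44 and 0% of all genes. At an unadjusted p under 0.05 there were 2, against 5.02% of all genes. These were PSMA8 at 0.91 (SE 0.33, 95% interval 0.18 to 1.65, adjusted p = 0.948) and PSMB10 at 0.79 (SE 0.30, 95% interval 0.12 to 1.45, adjusted p = 0.966). The median over the 44 was 0.02, with 23 positive, against 50.6% of all genes. The linalool arrays lay above all fenofibrate arrays for 5 genes, against 8.86% of all genes, and below them for 4, against 11.2%. They lay on opposite sides of 0 for PSMA8 and PSME3, against 4.16% of all genes, and with array constants taken off for PSMC3 alone, against 5.13%. For PSMB5 the linalool mean was 0.55 (SE 0.19) and the fenofibrate mean 0.56 (SE 0.16). A p that misses the threshold does not show that the compounds act alike.

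Genes around the proteasome were counted in 4 lists for lipid-loaded against untreated cells. Of 13 further subunits and partners 8 were called, all positive. UCHL5, a deubiquitinase of the regulatory particle, was the highest at 0.77 (SE 0.16, adjusted p = 0.0135), and ADRM1, the ubiquitin receptor that recruits it, stood at 0.76 (SE 0.17) and SEM1, a small lid subunit, at 0.75 (SE 0.17). Of 11 regulators of proteasome transcription 3 were called: NFE2L2 at 0.67 (SE 0.16, adjusted p = 0.0151), NGLY1, the glycanase that NFE2L1 needs for its activity, at 0.66 (SE 0.16) and NFE2L1 itself at 0.60 (SE 0.15, adjusted p = 0.0167). NFYB, a subunit of the factor that binds the CCAAT box, was the lowest at −0.33 (SE 0.24, adjusted p = 0.287). These counts are to be read against the 34.8% of all genes that were called.

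Of 14 genes for ubiquitin, its activating enzymes and shuttles 6 were called, all positive, a share close to the 34.8% of all genes. They were led by the ubiquitin gene UBB at 0.88 (SE 0.17, adjusted p = 0.0135) and included VCP, the unfolding ATPase, at 0.73 (SE 0.16). Of 15 antigen processing genes 6 were called, all positive, again close to that share, and 6 others had negative ratios that did not pass. The lowest was ERAP1, a peptidase that trims peptides in the endoplasmic reticulum, at −0.55 (SE 0.20, adjusted p = 0.0526). CALR, a chaperone that also serves class I molecules, was the highest at 1.11 (SE 0.20, adjusted p = 0.0135). TAP1, the peptide transporter subunit whose gene neighbours PSMB9, stood at 0.72 (SE 0.16), and B2M, the light chain of class I molecules, at 0.84 (SE 0.21). In the other 5 comparisons limma called 0 genes of these 4 lists. In linalool minus lipid-loaded CALR stood at −1.62 (SE 0.32, adjusted p = 0.296).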

How the data were processed

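The values analysed are the authors' processed ones for 29187 probes on 8 two-channel arrays, with 4 missing. Scanner output was not used here. Background correction and normalization: not given in the sources used here. Deposited values, on the evidence of the numbers themselves, were taken to be log2 ratios because, on each array, 100% of them matched the log2 of a 3-decimal ratio shifted by 1 constant (tolerance 0.0001, ratios from 0.2 to 2), whereas at most 32.1% did with the sign turned. Each column's mean, with its constant included, is within 5.9e-05 of 0, so taking the constants off moves the column means away from 0. The numerator is unknown. The column medians were 0.0452 and 0.0507 for linalool, 0.0865, 0.0635 and −0.012 for fenofibrate, and −0.0048, 0.0402 and 0.058 for lipid-loaded arrays.

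Per the labels, 8 µg of RNA gave oligo(dT)-primed cDNA that carried the dyes. Of the probes, 25053 had 1 symbol, 0 several and 4134 none. For 24981 of these the gene identifier matched RefSeq, and 0 symbols changed. Probes of a gene were averaged, and genes with at least 2 values in every group were tested. The 19 proteasome genes with several probes had 0 with probes of opposite sign in lipid-loaded against untreated cells, 4 with fenofibrate and 2 with linalool. Tests used limma 3.58.1 in R 4.3.3 with the data.table package, version 1.17.8 (lmFit and eBayes, two-sided, Benjamini-Hochberg over 18819 genes), in 1 fit to 8 arrays with a coefficient per group, and were tested on simulated data. Alternatives were quantile normalization, equal spread, median centring, array weights, robust eBayes, the replicate block, each comparison's own arrays, the first probe of each gene, each array left out, and, chosen after seeing the data, the array constants taken off.

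Every proteasome gene could be named. Full statistics went to the highest and lowest of each family and to the catalytic subunits. Other genes were named as highest, lowest or called. The members and lists were chosen with earlier results of these data known.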

Additional observations from a re-analysis of the deposited data

Results flagged for a closer look

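For 3 of 44 genes every linalool array lay on the other side of 0 from every lipid-loaded array, against 7.52% of all genes tested, and for 2 of these also from every fenofibrate array, against 4.16%. PSMA8, the testis alpha subunit, was positive on both linalool arrays and negative on all 3 fenofibrate and all 3 lipid-loaded arrays. It differed by 1.23 in linalool minus lipid-loaded (SE 0.33, limma adjusted p = 0.342) and by 0.91 in linalool minus fenofibrate (SE 0.33, adjusted p = 0.948). PSMB10, the immune beta subunit, was positive on both linalool arrays and negative on all 3 lipid-loaded arrays, with a difference of 1.44 (SE 0.30, adjusted p = 0.308). PSME3, the nuclear activator, was negative on both linalool arrays and positive on the other 6, with differences of −0.22 against lipid-loaded (SE 0.24, adjusted p = 0.716) and −0.30 against fenofibrate (SE 0.24, adjusted p = 0.988). None of these 5 differences passed the limma test. Each of the 3 genes was read by 1 probe. The sides depend on the array constants. With these taken off, PSMA8 on linalool replicate 2 was at 0, PSME3 was negative on all lipid-loaded arrays with a difference of 0.10, and PSMB10 stayed on opposite sides.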

How the results depend on the processing

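The 38 proteasome genes called in lipid-loaded against untreated cells became 0 with arrays scaled to the same spread (lowest adjusted p over all genes 0.0594, 37 of 44 at an unadjusted p under 0.05) and 17 with the array constants taken off, which was chosen after seeing the data. The spread of lipid-loaded replicate 1, the widest of the 8 arrays, is reduced by the scaling. The constants ran from 0.02 to 0.09 with linalool, 0.18 to 0.26 with fenofibrate and 0.25 to 0.59 in lipid-loaded cells. Taking them off moved the median of all genes in lipid-loaded cells to −0.38 and that of the proteasome genes to 0.37. With fenofibrate it moved them to −0.20 and 0.11, with 27 of 44 proteasome genes positive, and with linalool to −0.02 and 0.35. In linalool minus fenofibrate it moved the proteasome median to 0.18, where all genes stood at 0.17. Leaving out 1 array at a time gave 0 to 40 calls: 0 without lipid-loaded replicate 1, 25 without replicate 2 and 26 without replicate 3. The count of 40 came without fenofibrate replicate 3, where 7772 of all 18819 genes were called, against 6555 in the main fit. Without lipid-loaded replicate 1, and with equal spread, no gene of all those tested was called. The other settings gave 29 to 39. For the remaining counts the shares of all genes are not given here, so a change particular to the proteasome genes is not shown. In the other 5 comparisons limma called 0 of the 44 under all settings tried. Same-numbered arrays did not deviate together, with correlations across genes of 0.14, −0.02 and 0.08 between lipid-loaded and fenofibrate arrays, so the numbers are not shown to pair the samples. The replicate block gave 38 calls. Signal over background was not analysed here, so which genes were too dim to measure is unknown.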
